A study of Mus musculus with 18 samples.

Results

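The nuclear genes of the respiratory chain were taken as the protein-coding rows whose symbol begins with Nduf, Uqcr, Cox4 to Cox8 or Atp5, or is one of the Sdh subunits, which gave 91 of 37980 genes. Assigned by symbol alone, they comprised 42 genes of complex I, 4 of complex II, 8 of complex III, 19 of complex IV and 18 of complex V. Ndufa4 and Ndufa4l2 were thereby counted in complex I, but not among its core or accessory subunits below. RNA of the nucleus accumbens, a ventral region of the striatum, was sequenced from mice on a C57BL/6 background in 6 groups of 3 samples. Mice carried the genotype label Rgs9 wild type or Rgs9-2 knockout, written WT and KO below for the label only, and were either naive or had spared nerve injury (SNI), a lesion of sciatic nerve branches used as a model of neuropathic pain. Injured mice of either label were given saline or desipramine, a tricyclic antidepressant, at 15 mg/kg by intraperitoneal injection. No injection is stated for naive mice, and injury cannot be told apart from the injections that went with it.

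The respiratory chain sits in the inner mitochondrial membrane. Complexes I and II pass electrons from NADH and succinate to coenzyme Q, complex III passes them on to cytochrome c, and complex IV reduces oxygen with them. Complexes I, III and IV pump protons, and complex V, the ATP synthase, uses the proton gradient to make ATP, on which neurons depend for ion pumping and synaptic transmission. Most subunits are encoded in the nucleus, and some subunits of complex IV exist as a ubiquitous form and a form restricted to tissues such as heart and skeletal muscle.

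Each level below is a value of the authors in FPKM, fragments scaled to transcript length and to library size, with 1 value per gene and group. The authors' deposited tables give groups and not samples, which leaves out the spread within a group and the depth of each library. Errors given as SE are standard errors of log2 fold changes, recovered from the deposited test statistic. A gene was called where the authors' deposited q was at or below 0.05 over all genes tested in that table. The symbol rule also takes in genes that are not subunits, namely the assembly factors Ndufaf1 to Ndufaf4, Atp5s, Atp5sl and Cox4nb, a neighbour of Cox4i1. Of the 91 genes, 89 were tested in every table, while Cox8c and Atp5l-ps1 were near 0 and had no test. The titles put the 6 groups on 6 lanes, with 0 lanes shared, and a lane effect cannot be told apart from a group effect. Rgs9 went against the labels, at 217 FPKM in the KO naive group and 120 FPKM in the WT naive group (log2 fold change 0.85 ± 0.42 SE, q = 0.0443 in the authors' deposited table), and was also called higher under the label knockout in both injured comparisons. Groups are therefore named by their labels only.

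The forms of subunit 8 of complex IV show how a ubiquitous and a tissue-restricted gene of the chain differ, and carry the largest difference described below. Their coding sequences, without the stop codon, from GENCODE M21 are shown with capitals at positions that differ or are unmatched in a global alignment of the pair.

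Cox8a: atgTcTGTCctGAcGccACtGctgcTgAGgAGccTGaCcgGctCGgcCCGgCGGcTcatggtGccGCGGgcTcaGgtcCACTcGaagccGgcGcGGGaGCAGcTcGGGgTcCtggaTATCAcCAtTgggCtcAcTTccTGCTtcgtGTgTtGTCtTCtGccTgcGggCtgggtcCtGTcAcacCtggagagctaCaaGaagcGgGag
Cox8b: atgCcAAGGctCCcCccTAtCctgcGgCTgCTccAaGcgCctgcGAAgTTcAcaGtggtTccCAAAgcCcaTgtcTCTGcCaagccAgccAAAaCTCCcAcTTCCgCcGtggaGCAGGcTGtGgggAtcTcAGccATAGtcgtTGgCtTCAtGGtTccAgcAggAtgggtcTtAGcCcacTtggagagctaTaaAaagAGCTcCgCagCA

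The coding sequence of Cox8a, the ubiquitous form, has 207 bases, and that of Cox8b, the heart and skeletal muscle form, has 210 bases. They shared 114 of 215 alignment columns (53.0% identity).

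Promoter windows of 300 bases, 250 before and 50 after the RefSeq start (build GRCm38.p6), were matched by symbol for 71 of the 91 genes, in 76 windows. The windows of Cox8a and Cox8b are shown because the 2 genes differ in pattern, and those of Ndufa11 and Uqcr11 as examples from the genes called below. Capitals mark matches to the motifs named after them.

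Cox8a: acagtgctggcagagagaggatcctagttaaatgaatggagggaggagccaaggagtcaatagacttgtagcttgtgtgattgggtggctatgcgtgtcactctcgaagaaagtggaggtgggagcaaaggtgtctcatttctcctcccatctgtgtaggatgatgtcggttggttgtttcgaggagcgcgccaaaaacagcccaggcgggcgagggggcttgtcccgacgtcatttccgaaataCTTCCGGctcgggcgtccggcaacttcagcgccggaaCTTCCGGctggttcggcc
Cox8b: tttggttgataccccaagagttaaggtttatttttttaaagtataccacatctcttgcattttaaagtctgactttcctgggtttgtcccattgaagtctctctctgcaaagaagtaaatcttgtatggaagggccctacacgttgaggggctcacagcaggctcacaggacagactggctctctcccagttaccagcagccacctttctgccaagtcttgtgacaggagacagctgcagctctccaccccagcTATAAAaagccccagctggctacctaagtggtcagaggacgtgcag
Ndufa11: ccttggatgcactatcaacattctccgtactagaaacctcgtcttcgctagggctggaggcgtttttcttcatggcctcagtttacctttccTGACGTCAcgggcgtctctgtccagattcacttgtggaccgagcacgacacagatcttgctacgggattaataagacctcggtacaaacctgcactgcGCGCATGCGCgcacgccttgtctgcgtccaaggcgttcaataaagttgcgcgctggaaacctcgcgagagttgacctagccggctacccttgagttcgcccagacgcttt
Uqcr11: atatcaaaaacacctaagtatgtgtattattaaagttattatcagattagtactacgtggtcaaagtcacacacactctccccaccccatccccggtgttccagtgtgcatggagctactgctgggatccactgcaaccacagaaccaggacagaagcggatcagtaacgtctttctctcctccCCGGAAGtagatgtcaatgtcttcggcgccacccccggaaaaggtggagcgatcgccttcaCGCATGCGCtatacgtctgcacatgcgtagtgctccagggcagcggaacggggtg

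These windows lie at chr19:7217567-7217866 on the minus strand for Cox8a, chr7:140900397-140900696 on the minus strand for Cox8b, chr17:56717512-56717811 on the plus strand for Ndufa11 and chr10:80406772-80407071 on the minus strand for Uqcr11. The capitals in Cox8a are 2 matches to the ETS motif CCGGAAG, the binding sequence of factors such as GABPA. The capitals in Cox8b are a TATAAA box, searched on the gene's strand and added to the motifs after the sequence was seen. Ndufa11 holds a match to the CREB motif TGACGTCA and overlapping matches, 1 on each strand, to the NRF1 motif GCGCANGCG, while Uqcr11 holds 1 ETS and 1 NRF1 match. Among the other called genes with a window, Atp5k holds an NRF1 match, while Ndufb7, Ndufs7, Cox8b, Atp5e and Atp5j2 hold none. Cox8b had 2 CpG sites in its window against 19 in Cox8a, and the median was 19 in the windows of the respiratory chain genes and 7 in all 32841 windows. On either strand, NRF1 matches were present in 28.9% of the respiratory chain windows and 6.25% of all windows, ETS matches in 22.4% and 8.86%, and matches to the YY1 motif AAGATGGCG in 9.21% and 1.40%. The shares were 5.26% and 1.79% for CREB, 10.5% and 4.72% for the ESRRA motif AAGGTCA, 42.1% and 35.7% for the SP1 motif GGGCGG, and 3.95% and 8.32% for TATAAA. A match describes letters in a window and not a bound site.

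The respiratory chain genes stood higher in the WT naive group than in any other group. Their median level was 231 FPKM there and between 162 and 174 FPKM in the other 5 groups, and 78 of the 91 genes had their highest level there. Summed over the 91 genes, the level was 27634 FPKM in the WT naive group and between 18790 and 19368 FPKM elsewhere. They made up 5.18% of the FPKM of tested protein-coding genes in that group and 3.99% to 4.05% in the other groups in the genotype tables. Among the 81 genes at 10 FPKM or more in each of the other 5 groups, the highest of those 5 levels exceeded the lowest by a median factor of 1.07 and at most 1.199, in Uqcr11. Of these 81 genes, 73 were above all 5 in the WT naive group, at a median of 1.37 times the highest of the 5. How many of all genes had their highest level in the WT naive group was not counted. These counts, and those by complex below, therefore have no share of all genes beside them. The summed FPKM of tested protein-coding genes was also larger there, at 533372 against 471626 in the KO naive group.

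**Figure D1:**
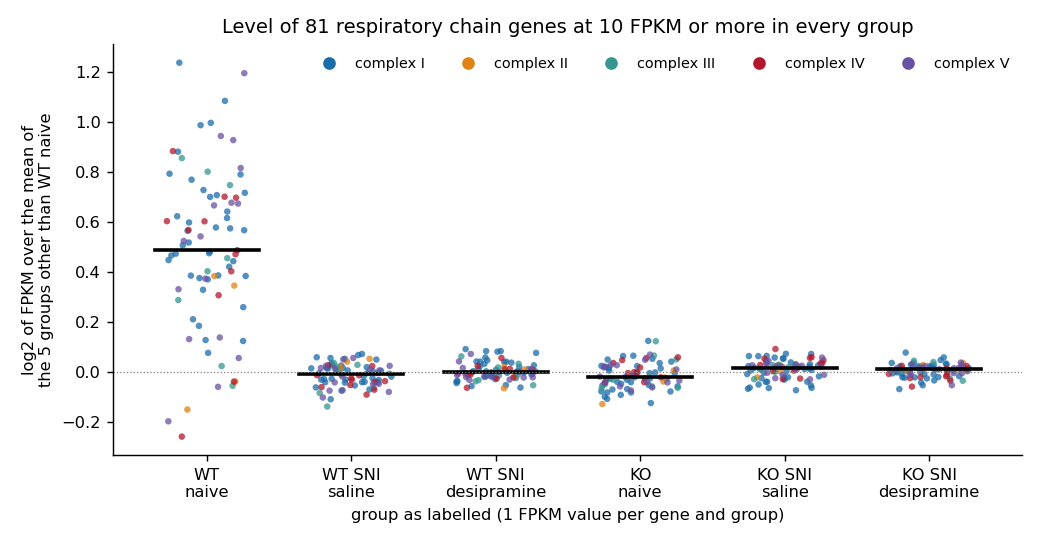
Each point is 1 of the 81 respiratory chain genes, plotted as the log2 of its FPKM over its mean in the 5 groups other than the WT naive group, by group and coloured by complex; black bars are medians. The median is 0.49 in the WT naive group and between -0.02 and 0.02 in the other groups, whose points lie close together.

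By complex, the WT naive group was highest for 41 of 42 genes of complex I, 2 of 4 of complex II, 6 of 8 of complex III, 15 of 19 of complex IV and 14 of 18 of complex V. The medians lay closest together in complex II, at 148 FPKM in that group and 134 to 139 FPKM elsewhere. It holds only 4 genes, whose median SE between the naive labels was 0.45, and a difference between complexes was not tested. Sdha, the flavoprotein of complex II, was at 346 FPKM in the WT naive group and at 325 to 369 FPKM in the others. The medians of complex I were 187 FPKM against 120 to 127 FPKM, and those of complex V 379 FPKM against 239 to 251.3 FPKM. Genes that did not follow included Uqcrfs1, the Rieske iron-sulphur protein of complex III, at 92.8 FPKM against 87.3 to 93.1 FPKM, and Cox8a, at 666 FPKM against 651 to 710 FPKM. Atp5j, coupling factor 6 of the ATP synthase, was lowest there, at 350 FPKM against 390 to 412 FPKM, and was named after its values were seen.

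In the comparison of genotype labels in naive mice, the genes were lower in the group labelled knockout, with a median log2 fold change of -0.49 over 89 tested genes beside -0.03 over all tested genes. Of the 89, 82 had a negative value, and the quartiles were -0.69 and -0.34. By the authors' deposited q, 4 genes were called, all lower in the group labelled knockout, where 1.11% of all tested genes were called lower and 1.44% in either direction. At an unadjusted p below 0.05, 39 of the 89 (43.8%) were lower and 0 higher, beside 6.37% of all tested genes lower and 3.13% higher. The median SE of the 89 genes was 0.44 in this table.

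The called genes were Ndufb7 and Ndufa11, accessory subunits of complex I, Atp5e, the epsilon subunit of the ATP synthase, and Cox8b. Ndufb7 was at 249 FPKM in the WT naive group and at 113 to 121 FPKM in the other 5 groups. In the authors' deposited table its log2 fold change between the naive groups was -1.07 ± 0.48 SE (q = 0.00761). Atp5e was at 748 FPKM and at 309 to 343 FPKM in the other groups, so that 1 group stood apart and the other 5 lay close together. Its log2 fold change was -1.13 ± 0.49 SE in the authors' deposited table (q = 0.0134). Ndufa11 was at 41.9 FPKM and at 21.6 to 24.0 FPKM elsewhere, with -0.93 ± 0.42 SE (q = 0.0391) in the authors' deposited table. In mm9, Ndufb7 spans chr8:86090569-86095525, Atp5e chr2:174286572-174289606, Ndufa11 chr17:56857184-56863671 and Cox8b chr7:148084841-148086345, each alone in its tested locus. Taking a normal p from the deposited statistic and adjusting it over the table called 1 of the 89 genes in this comparison, Cox8b. For injury in the label wild type it called 2, Cox8b and Atp5l. Over all genes with such a p it called 77 of 17298 and 86 of 17414 in these comparisons. The calls of the other named genes therefore rest on the authors' deposited p.

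The comparison of injured, saline-treated with naive mice in the label wild type uses the same naive group, so its values are given beside the former and are no independent evidence. The median log2 fold change of the 89 genes was -0.56, beside -0.03 over all tested genes, and 82 of 89 were negative. By the authors' deposited q, 9 genes were called, all lower after injury, where 1.06% of all tested genes were called lower and 1.42% in either direction. At an unadjusted p below 0.05, 43 of 89 (48.3%) were lower and 0 higher, beside 6.32% and 2.62% of all tested genes. Atp5e (-1.32 ± 0.50 SE, q = 0.00766), Ndufb7 (-1.18 ± 0.50 SE, q = 0.00766) and Cox8b were called in the authors' deposited tables of both comparisons. The others were Ndufa2, an accessory subunit of complex I, Ndufs7, which carries an iron-sulphur cluster of complex I, Uqcr11 and Uqcrq, small subunits of complex III, and Atp5j2 and Atp5k, membrane subunits of the ATP synthase.

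Uqcrq was at 594 FPKM in the WT naive group and at 314 to 340 FPKM in the other 5 groups. Its log2 fold change after injury was -0.96 ± 0.47 SE (q = 0.0408) in the authors' deposited table. Uqcr11 was at 566 FPKM and at 295 to 353 FPKM in the others, with -0.98 ± 0.47 SE (q = 0.0182) in the authors' deposited table. Ndufs7 was at 246 FPKM and at 136 to 151 FPKM in the others, with -0.88 ± 0.44 SE (q = 0.0493) in the authors' deposited table, close to the threshold. Atp5k and Atp5j2 were at 915 and 457 FPKM in the WT naive group and at 494 to 541 and 226 to 241 FPKM in the others. In the authors' deposited table they had q = 0.0293 and q = 0.0458. Ndufa2 was at 399 FPKM and at 195 to 206 FPKM elsewhere (q = 0.0130 in the authors' deposited table), and shares its tested locus with 1 other gene. In each of these genes the WT naive value lay above all 5 others. They were picked by a call against that group, so this is no added support. In mm9, Uqcrq spans chr11:53241423-53244333, Uqcr11 chr10:79865741-79869575, Ndufs7 chr10:79711865-79719539, Atp5k chr5:108862262-108863467 and Atp5j2 chr5:145944566-145952931.

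The values of the catalytic subunits were spread, with large errors and no test between genes. Between the naive labels the log2 fold change was -0.84 ± 0.44 SE for Ndufv1, -0.15 ± 0.49 SE for Ndufs1 and -0.50 ± 0.51 SE for Atp5b. For Sdha it was -0.09 ± 0.45 SE and for Uqcrfs1 -0.09 ± 0.33 SE. Ndufv1, which binds NADH and FMN, was at 184 FPKM in the WT naive group and at 103 to 118 FPKM in the others, without a call (q = 0.128 between the naive groups in the authors' deposited table). Ndufs1, the large iron-sulphur subunit of complex I, was at 65.3 FPKM and at 58.7 to 64.7 FPKM in the others, and lies in a tested locus of 6 genes. Atp5b, the catalytic beta subunit of the ATP synthase and the most abundant gene of complex V, was at 1379 FPKM and at 927 to 987 FPKM in the others, with q = 0.872 in the authors' deposited table, in a locus of 5 genes. Over 7 core subunits of complex I the median log2 fold change between the naive groups was -0.59, and over 29 accessory subunits it was -0.59, while it was -0.39 over Ndufaf1 to Ndufaf4. Complexes II, III, IV and V had medians of -0.22, -0.42, -0.48 and -0.50.

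The authors' deposited Cuffdiff q called 0 of the 89 genes in each of the other 5 comparisons, which do not use the WT naive group. A normal p taken from the deposited statistic called 1, Cox8b between the labels after desipramine, beside 86 of 17294 genes over all. In the other 4 tables it called 0 of the 89 and between 53 and 78 genes over all. Over all tested genes the authors' deposited q called 0.329% between the labels after saline, 0.859% between the labels after desipramine, 0.459% for injury in the label knockout, 0.202% for desipramine in the label wild type and 1.05% for desipramine in the label knockout. At an unadjusted p below 0.05 the counts among the 89 were 2, 1, 1, 1 and 0 in the same order, beside 2.9%, 5.58%, 4.41%, 1.79% and 4.37% of all tested genes. Their median log2 fold changes were 0.01, 0.01, -0.00, 0.01 and -0.02, and 83 to 86 of the 89 lay within 0.2 of 0. The median SE was between 0.19 and 0.26 in these tables, smaller than the 0.44 and 0.45 of the tables with the WT naive group. The genes at an unadjusted p below 0.05 were Cox8b in 4 of these tables and Cox7b2, a testis form of subunit 7b, in the comparison of labels after saline.

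**Figure D2:**
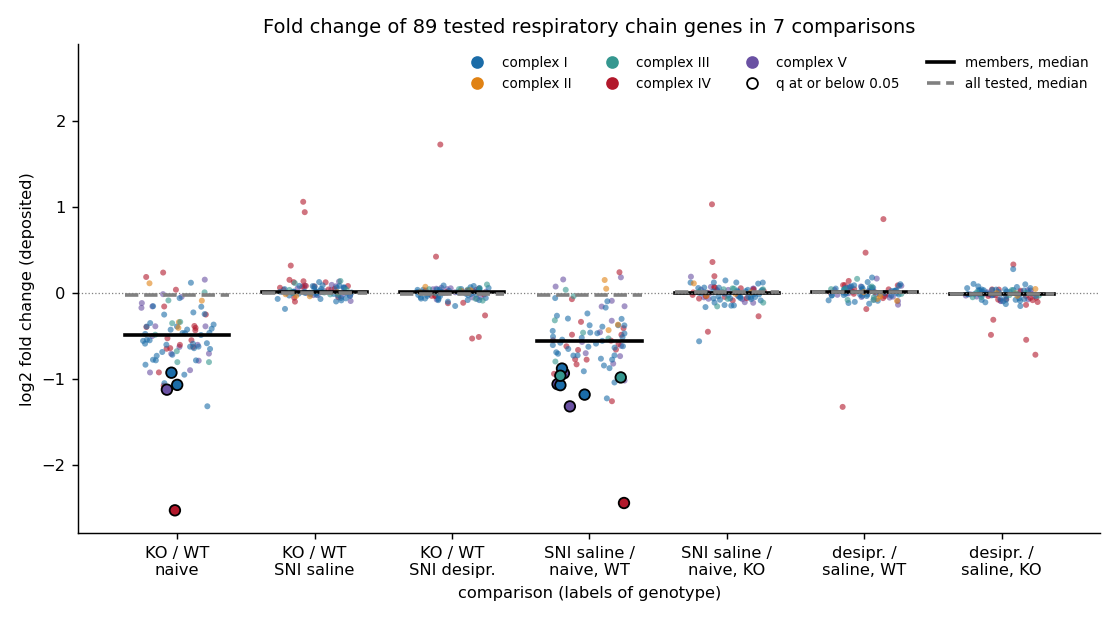
Each point is the deposited log2 fold change of 1 of the 89 tested respiratory chain genes in 1 of the 7 comparisons, coloured by complex; ringed points have q at or below 0.05, black bars are the medians of these genes and dashed grey bars those of all tested genes. The medians lie at -0.49 and -0.56 in the comparisons with the WT naive group and between -0.02 and 0.01 in the others, and the lowest ringed point of both is Cox8b.

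Cox8b was the gene with the lowest fold change in both comparisons with the WT naive group. Its level was 8.50 FPKM in that group, 1.47 FPKM in the KO naive group, 1.60 and 3.08 FPKM after injury with saline in the labels wild type and knockout, and 0.643 and 2.13 FPKM after desipramine. The naive group labelled wild type was the highest, and the group labelled wild type with desipramine the lowest. In the authors' deposited tables the log2 fold change was -2.53 ± 0.36 SE between the naive labels (q = 0.00761) and -2.45 ± 0.34 SE for injury in the label wild type (q = 0.00766). Between the labels it was 0.94 ± 0.31 SE after saline and 1.73 ± 0.36 SE after desipramine, not called in the authors' deposited tables (unadjusted p = 0.0306 and 0.00265, the latter with q = 0.165). Desipramine in the label wild type gave -1.33 ± 0.38 SE and injury in the label knockout 1.03 ± 0.33 SE, again without a call in the authors' deposited tables (unadjusted p = 0.0150 and 0.0279).

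The difference between the labels was of opposite sign in naive and in injured, saline-treated mice. The log2 fold change of Cox8b after saline exceeded that in naive mice by 3.47 ± 0.48 SE, and Cox8b was the 1 of 89 genes called in this test of the difference (two-sided normal p, Benjamini-Hochberg adjusted p = 1.14e-09), beside 0.184% of 16860 genes. This p rests on a normal approximation to the deposited statistic. For Cox8b between the labels after saline that approximation gives p = 0.00257 where the authors' deposited p is 0.0306, and the adjusted p carries that approximation. Between the naive labels it gives p = 2.3e-12 where the authors' deposited p is 5e-05, the lowest p in that table. Cox8b and the high WT naive level were known when the genes were chosen, so the call is no independent support. In that test 9 of the 89 had an unadjusted p below 0.05, beside 2.05% of all genes, and it too uses the WT naive group. For the desipramine response, 0 of 89 genes were called as differing between the labels, beside 0.154% of 16901 genes. There 1 of the 89 had an unadjusted p below 0.05, beside 1.15% of all genes.

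The other pairs of isoforms held their order in all groups, with the ubiquitous form far above the restricted one. Cox8b was at 1.28% of the level of Cox8a in the WT naive group and at 0.0924% to 0.434% in the others. Cox7a1, the heart and skeletal muscle form of subunit 7a, was at 8.81 FPKM in the WT naive group and at 3.94 to 5.69 FPKM in the others, or at most 3.19% of the level of Cox7a2 in any group. Between the naive labels its log2 fold change was -1.08 ± 0.33 SE, not called in the authors' deposited table (q = 0.268). Cox6a2, the muscle form of subunit 6a, was at 5.42 to 8.28 FPKM beside 596 to 1029 FPKM for Cox6a1. Cox4i2, known as the lung form of subunit 4, was at 2.45 to 4.08 FPKM beside 716 to 974 FPKM for Cox4i1, whose tested locus holds 160 genes and whose SE was 2.25 between the naive labels. Cox6b2, Cox7b2 and Cox8c, all known from testis, were at 3.40 to 4.72, at 0.427 to 0.994 and at or below 0.0574 FPKM.

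**Figure D3:**
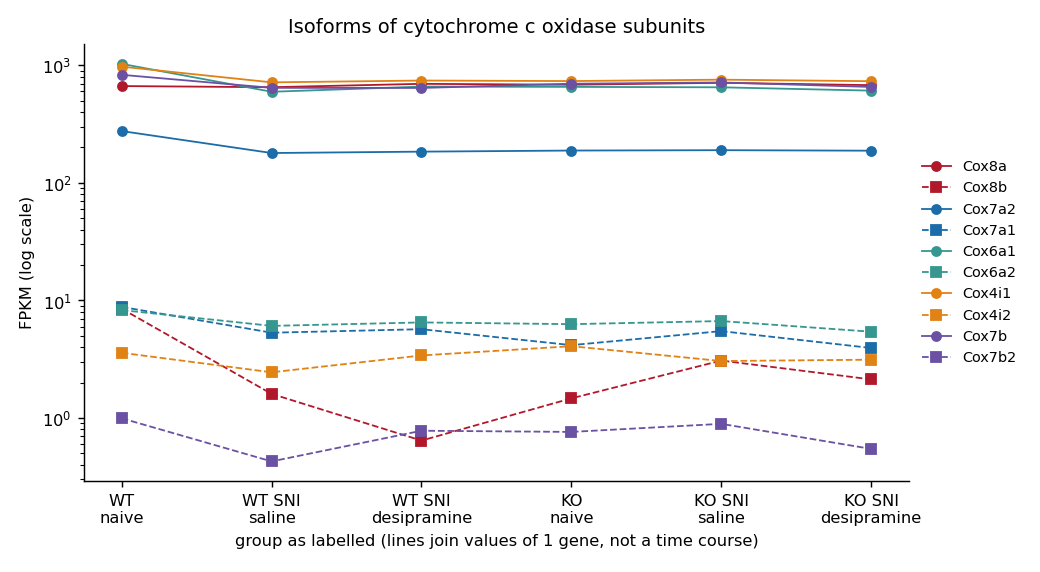
FPKM on a log scale in the 6 groups for 5 pairs of complex IV isoforms; circles with solid lines are ubiquitous forms, squares with dashed lines restricted forms, and lines join the values of 1 gene. Cox8b runs from 8.50 FPKM in the WT naive group down to 0.643 FPKM, while Cox8a stays between 651 and 710 FPKM.

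Ranked by Pearson correlation of log2 levels with Cox8b over the 6 groups, the first of 14828 genes were 2510046G10Rik (r = 0.995), Eapp (0.991), Ddx50 (0.988), Pon3 (0.986) and C1galt1c1 (0.983). Eapp, for example, ranged from 20.5 to 24.5 FPKM, a far smaller span than that of Cox8b. Within the respiratory chain the highest was Sdhd, a membrane subunit of complex II, at 0.902. With 6 points, of which the WT naive group is far from the rest, such values are a description.

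Markers of other tissues were read beside these values. Of 15 genes of skeletal and cardiac muscle, 10 were tested between the naive labels and 11 for injury in the label wild type, with median log2 fold changes of -0.50 (8 negative) and -0.57 (9 negative) and 0 called in either. Their summed level was 31.0 FPKM in the WT naive group and 22.5 to 31.5 FPKM in the others, where the highest sum, in KO mice after injury with saline, held 7.04 FPKM of Tnnt1, which was at no more than 3.38 FPKM in the other groups. Ckm, Myh4 and Actc1 were below 0.1 FPKM in every group. Of 8 brown fat genes, 4 were tested, Cidea, Dio2, Pparg and Cox7a1, which is itself one of the respiratory chain genes. All 4 had negative log2 fold changes in both comparisons, with medians of -0.81 and -0.67, 2 at an unadjusted p below 0.05 in each and 0 called. The brown fat list summed to 21.2 FPKM in the WT naive group and 13.4 to 17.4 FPKM in the others, and its other genes, Ucp1, Adipoq, Plin1 and Elovl3, were below 0.1 FPKM in every group. Markers of cortical excitatory neurons summed to 331 FPKM in the WT naive group and 75.8 to 146 FPKM in the others, with 8 of 10 tested genes called lower in each of the 2 comparisons with that group. Choroid plexus markers summed to 1433 FPKM there, of which Ttr made up 1362 FPKM, and to 30.8 to 672 FPKM elsewhere. Their medians were -0.72 between the naive labels, with 0 of 12 called, and -2.72 for injury in the label wild type, with 8 of 12 called lower. Red cell genes summed to 286 FPKM there and 117 to 162 FPKM elsewhere, with medians of -0.73 and -1.02 and 0 and 3 of 5 called lower. Medium spiny neuron genes had a median log2 fold change of 0.70 between the naive labels, with 4 of 15 called higher in KO, and of -0.01 for injury in the label wild type with 0 called. Rgs9, which went against the labels, is itself in this list and is 1 of the 4 called. Parvalbumin interneuron genes had -0.55 and 0.08, with 2 and 1 of 8 called lower. The medians were 0.08 and 0.23 for oligodendrocytes, 0.17 and 0.26 for astrocytes, -0.19 and -0.36 for microglia, and 0.20 and -0.01 for meninges and vessels. In this last list 2 genes were called higher between the naive labels, and 0 genes of the other 3 were called in either comparison. The part of these cell types in the level of the respiratory chain genes was not tested, and in tissue samples more cells of a type and more RNA per cell cannot be told apart.

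Other genes of mitochondrial and energy metabolism were read in the same comparisons, with no test of a difference between lists. The 16 genes of the tricarboxylic acid cycle had a median log2 fold change of -0.11 between the naive labels and -0.06 for injury in the label wild type, with 0 called. Glycolytic genes had medians of -0.29 and -0.30, all 16 tested genes negative and 0 called. Mitochondrial carriers and import genes had -0.12 and -0.12, regulators such as Ppargc1a and Tfam 0.01 and -0.03, and assembly factors outside the symbol rule -0.15 and -0.16, again with 0 called in each. Electron carriers and coenzyme Q synthesis genes had -0.16 and -0.02 with 0 called. Of 13 mitochondrially encoded genes of the chain, 3 were tested, and all had positive log2 fold changes, opposite in sign to the median of the nuclear genes. Between the naive labels mt-Nd1, mt-Nd2 and mt-Nd3 had 0.65 ± 0.73 SE, 0.75 ± 0.66 SE and 0.18 ± 0.16 SE, and for injury in the label wild type 0.65 ± 0.62 SE, 0.62 ± 0.57 SE and 0.10 ± 0.16 SE. None of the 3 was called in the authors' deposited tables of these comparisons (unadjusted p from 0.0740 to 0.696). The others had too many reads for a test and are listed at 0 in at least some groups, which is no measurement of their level.

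The respiratory chain genes are short, and short transcripts as a whole were lower in the same comparisons. Their median transcript length was 694 nt against 2228 nt for other genes, and 76.1% against 17.6% were at or below 1000 nt. Across genes, which are not independent, the correlation of log2 length with log2 fold change between the naive labels was 0.32 in 88 respiratory chain genes and 0.31 in 12568 others, and for injury in the label wild type 0.36 and 0.31. Other genes of 500 to 750 nt had a median of -0.19 between the naive labels and those over 5000 nt a median of 0.19, while respiratory chain genes of 500 to 750 nt had -0.60. Among transcripts up to 1000 nt at 100 FPKM or more, the median was -0.35 over 267 other genes and -0.63 over 51 respiratory chain genes, and -0.35 and -0.64 for injury in the label wild type. The summed FPKM of all genes was also larger in the WT naive group, at 648632 against 526231 in the KO naive group. A single microRNA gene, mmu-mir-703, held 67160 and 19864 FPKM of these sums. With levels rescaled to an equal sum over all genes, the median log2 fold change of the respiratory chain genes between the naive labels was -0.19 in place of -0.49. With the sum of tested protein-coding genes, a setting chosen after seeing the data, it was -0.31. The part of transcript length and scale in the difference was not tested.

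**Figure D4:**
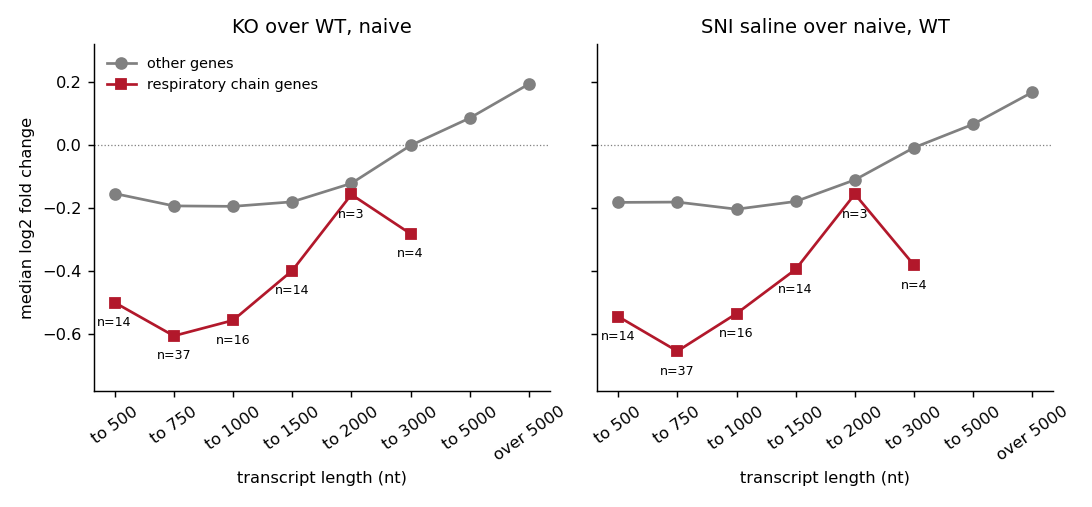
Median log2 fold change by bin of transcript length for other genes (grey circles) and respiratory chain genes (red squares, with the number of genes), for the genotype labels in naive mice on the left and injury in the label wild type on the right. On the left, other genes lie between -0.15 and -0.19 in the bins up to 1000 nt and reach 0.19 in the longest, and the respiratory chain genes lie below them in each bin that holds any; the bins with 3 and 4 of these genes are thinly filled.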

How the data were processed

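Per the labels' protocols, tissue was homogenised in Trizol, RNA was cleaned on columns, and Illumina TruSeq libraries were sequenced. Cuffdiff 2.1.1, TopHat2 2.0.9 and Bowtie2 2.1.0 are named in the submitters' processing notes, as are mm9 and NCBIM37; gene annotation and tool options, not given in the sources used here, stay unknown. The authors deposited 7 pairwise tables with 1 FPKM value per gene and group. The deposited log2 value is the second group's FPKM over the first's, and the deposited test statistic is a score with the same sign. The p-value and q-value are the authors' Cuffdiff results.

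Levels were taken from the 3 genotype tables, which hold each group once; the other tables differed by -1.55% to 2.08%. Standard errors were obtained by dividing the log2 fold change by the test statistic. The planned limma test needed a value per sample and was not run. Responses were compared by the difference of 2 fold changes over the root of their summed squared standard errors, using a normal p adjusted by Benjamini-Hochberg. The calculation was tried on simulated normal data with the same standard errors, which cannot test the normal approximation itself. The named genes were those called in a table, the highest and lowest of each complex, catalytic subunits, isoform pairs and the 3 smallest p per comparison; not all are described. Transcript lengths are medians from GENCODE M21. Of 221 list genes, 216 were found by symbol. The members, lists and tests were chosen with earlier results of these data known. Python 3.11.15, pandas 2.3.3, scipy 1.17.1 and Biopython 1.88 were used.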

Additional observations from a re-analysis of the deposited data

Results flagged for a closer look

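Cox8b had log2 fold changes between the genotype labels of opposite sign in naive and in injured, saline-treated mice. The log2 fold change of the group labelled knockout over that labelled wild type was -2.53 ± 0.36 SE in naive and 0.94 ± 0.31 SE in injured mice, a difference of 3.47 ± 0.48 SE. The levels behind it are low, from 1.47 to 8.50 FPKM, and among the 6 groups only WT naive exceeded 3.08 FPKM. In the authors' deposited Cuffdiff tables the value in naive mice was called (q = 0.00761). The value in injured mice was not (unadjusted p = 0.0306, q = 0.99995). Each group had its own lane, and the reason for the difference was not tested.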

How the results depend on the processing

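The median log2 fold change of the respiratory chain genes stayed negative in both comparisons with the WT naive group under the 7 alternatives tried. Rescaling FPKM to an equal sum over all genes gave -0.19 between the naive labels and -0.22 for injury in the label wild type. Rescaling to the sum of tested protein-coding genes, chosen after seeing the data, gave -0.31 and -0.34, and with the respiratory chain genes left out of that sum -0.33 and -0.35. At q at or below 0.01 the count of called respiratory chain genes fell from 4 to 2 between the naive labels and from 9 to 3 for injury. Over all tested genes it fell from 250 to 114 of 17358 and from 248 to 114 of 17464. A normal p from the deposited statistic called 1 and 2 of the 89, beside 77 of 17298 and 86 of 17414 genes over all. Between the labels after desipramine it called 1, beside 86 of 17294 genes, where the deposited q called 0 of the 89. The cause was not tested. Of 79 alternative values, 68 stayed within 1.5 times the count or 0.1 on the log2 scale; among them, medians close to 0 in the comparisons without the WT naive group changed sign under some settings. No paired analysis was possible because the tables hold no value per sample, and for the same reason no replicate could be left out. Depth is unknown, and precision is limited to what the deposited statistic carries.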
